A study of Mus musculus with 28 samples.

Results

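The 8 scavenger and clearance receptor genes Msr1, Marco, Mrc1, Cd68, Mertk, Axl, Scarb1 and Scarb2 were followed through the conversion of mouse Pre-B cells into macrophages. They were taken by symbol from an RNA-seq table of 55450 genes, in which each symbol named 1 gene. The table holds 12 libraries of C10 cells, a line derived from HAFTL cells, with 3 biological replicates at each of 4 time points. All libraries, the uninduced ones included, carry the CEBPalpha-ER transgene, in which C/EBPα is fused to the hormone-binding domain of the estrogen receptor and enters the nucleus when the hormone is added. The 0h libraries were uninduced, and the 1h, 12h and 48h libraries had that time of treatment with 100 nM β-estradiol plus IL-3 and CSF-1, so the parts of the hormone and of the cytokines cannot be told apart. C10 is 1 line, and the sources used here do not say whether the replicates came from separate cultures, so the p-values measure the spread between these libraries, which may be technical. Promoter Capture Hi-C, which lists restriction fragments that touch a captured promoter fragment more often than their distance predicts, gave 1 merged list per time point.

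Scavenger receptors take up modified lipoproteins, microbes and cell debris, and clearance receptors of the TAM family (Tyro3, Axl and Mertk) bind dying cells through the bridging proteins Gas6 and protein S. Msr1 and Marco are class A scavenger receptors of macrophages, Mrc1 is the mannose receptor, and Cd68 is a heavily glycosylated protein of late endosomes and lysosomes used as a macrophage marker. Scarb1 and Scarb2 share the class B fold: Scarb1 is the receptor for high-density lipoprotein at the cell surface, and Scarb2, also called LIMP-2, is a membrane protein of lysosomes that sorts cargo to them.

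Levels are in TPM, a normalized unit that gives the abundance of a gene's transcripts per length relative to all others of its library, so that levels of different genes can be set side by side. TPM themselves keep no record of depth, and the numbers of reads sequenced were not used here. The room left for most genes differed between libraries. Outside the 20 most abundant genes the TPM summed to between 87596 and 91905 at 0h, 122920 and 131784 at 1h, 90879 and 127273 at 12h, and 58343 and 94692 at 48h. Changes are given on the log2(TPM + 0.1) scale, on which the fold of a low gene depends on the 0.1 added, with limma's standard error and the adjusted p (Benjamini-Hochberg over 16415 tested genes), and a gene is called at an adjusted p under 0.05. Relative to 0h the median gene moved by 0.59 at 1h, 0.34 at 12h and -0.18 at 48h on this scale. After median-of-ratios scaling, which divides each library by its median ratio to the mean library, these shifts were 0.021, 0.069 and 0.072, and scaled values are given where a call or a direction of a receptor or a count of calls over a list changed.

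The labelled cell types were checked against marker genes. Pre-B markers (9 genes, among them Vpreb1, Igll1 and Pax5) summed to between 279 and 314 TPM at 0h and to between 27 and 38.1 TPM at 48h. All 9 were called lower at 48h, against 27.2% of all tested genes, but 8 after median-of-ratios scaling. Macrophage markers (9 genes, among them Itgam, Csf1r and Cd14) went from between 10.4 and 11.8 TPM at 0h to between 827 and 965 TPM at 48h. Mmp12, at a mean of 491.5 TPM, was the largest part of the 48h sum, followed by Cybb at 149.5 TPM and Lyz2 at 108.9 TPM. Itgam, Csf1r and Cd14 were at means of 8.07, 18.68 and 46.65 TPM at 48h. All 8 markers that could be tested were called higher at 48h, against 15.9% of all tested genes. Of these, Itgam, Fcgr1 and Mmp12 were at means of 0.05, 0.057 and 0.007 TPM at 0h. A test required a mean of at least 0.1 TPM over all libraries, which these genes reached only through later libraries. This filter on low values thus favoured their calls. Cd14, at 0 TPM at 0h, could not have been called lower. The ninth, Adgre1, which encodes F4/80, was at 0, 0 and 0.29 TPM at 48h. Of 6 markers of tissue-resident macrophages 4 were at 0 in all 12 libraries, and their sum never passed 0.3 TPM. Markers of granulocytes (8 genes, with Mpo and S100a9 at 0 throughout) summed to between 9.64 and 17 TPM at 12h and to between 1.85 and 4.54 TPM at 48h, against at most 0.64 TPM at 0h and 1h. Of the 8 markers, 4 were at 0 in all libraries of 12h, and 4 were at 0 in all libraries of 48h. The 3 that could be tested, Camp, Prtn3 and S100a8, were at means of 8.69, 2.36 and 1.78 TPM at 12h. All 3 were called higher at 12h against 0h, where 22.3% of all tested genes were. Camp and S100a8, at means of 0.06 and 0 TPM at 0h, passed the filter only through their later libraries. At 48h Camp and S100a8 were called higher, against 15.9% of all tested genes, and all 3 after median-of-ratios scaling. Markers of dendritic cells (6 genes) reached at most 1.8 TPM and those of T cells (5 genes) at most 0.18 TPM. Whether any of these cells were present, and what part they had in the results, was not tested.

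A RefSeq promoter sequence (assembly GRCm38.p6, 250 bases before to 50 after the start site) was found for 6 of the 8 genes: Marco, Mrc1, Cd68, Mertk, Axl and Scarb2. The 250 bases before the start are shown for a pair of genes that the cells gained or raised by 48h (Cd68 and Axl) and a pair listed at 0 in every library (Marco and Mertk), each 5′ to 3′ on its gene's strand, with motif matches in capitals. The Cd68 stretch is at chr11:69666171-69666420, minus strand, the Axl stretch at chr7:25788734-25788983, minus strand, the Marco stretch at chr1:120505025-120505274, minus strand and the Mertk stretch at chr2:128698665-128698914, plus strand.
Cd68: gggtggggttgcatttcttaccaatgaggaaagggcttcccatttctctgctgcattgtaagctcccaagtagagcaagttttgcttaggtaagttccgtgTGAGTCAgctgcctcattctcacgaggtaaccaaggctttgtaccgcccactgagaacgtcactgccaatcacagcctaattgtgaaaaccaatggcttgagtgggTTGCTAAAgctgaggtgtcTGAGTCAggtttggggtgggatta
Axl: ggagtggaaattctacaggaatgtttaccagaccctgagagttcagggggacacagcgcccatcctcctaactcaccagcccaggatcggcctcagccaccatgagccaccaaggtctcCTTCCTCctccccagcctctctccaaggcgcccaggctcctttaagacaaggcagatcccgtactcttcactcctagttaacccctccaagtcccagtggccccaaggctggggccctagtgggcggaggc
Marco: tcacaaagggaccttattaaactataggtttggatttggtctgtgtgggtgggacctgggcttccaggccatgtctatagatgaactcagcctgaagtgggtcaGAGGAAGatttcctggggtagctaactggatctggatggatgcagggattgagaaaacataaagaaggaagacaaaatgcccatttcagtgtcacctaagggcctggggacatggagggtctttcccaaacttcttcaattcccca
Mertk: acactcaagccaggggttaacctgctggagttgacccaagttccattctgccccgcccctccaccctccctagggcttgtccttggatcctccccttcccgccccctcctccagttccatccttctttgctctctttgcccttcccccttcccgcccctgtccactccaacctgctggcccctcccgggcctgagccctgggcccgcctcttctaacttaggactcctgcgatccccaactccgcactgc
The letters searched, on both strands of the 300 bases, were TTGCNNAA for C/EBP, GAGGAAG for PU.1, TGANTCA for AP-1 and CACGTG for the E-box, and no matches overlapped in these genes. Cd68 held 1 C/EBP match, which begins 43 bases before the start, and 2 AP-1 matches, at 149 and 24 bases before it. Axl and Marco each held 1 PU.1 match, at 131 and 146 bases before their starts, so that the same letters lay in the promoter of a gene at 0 and of a gene that was not. Mrc1 held 2 PU.1 matches, at 168 and 36 bases before its start, and Mertk and Scarb2 held none of the 4 motifs. Among all 32851 promoters of this length 10.8% held the C/EBP letters, 13.6% the PU.1 letters, 7.81% the AP-1 letters and 7.15% the E-box letters. A match describes these letters only and is not a measurement of binding.

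Of the class A receptors, Msr1 was detected late and Marco was not detected. Msr1 (ENSMUSG00000025044, chr8:39581685-39642673, minus strand, GRCm38) was at 0 TPM in each of the 6 libraries of 0h and 1h. At 12h it was at 0.14, 0 and 0 TPM, and at 48h at 2.69, 4.02 and 5.13 TPM. Every 48h library lay above every earlier one. The call by limma had an adjusted p of 1.16e-06 against 0h and of 8.46e-06 against 12h. No fold is given against libraries at 0, and since Msr1 passed the filter on low values only through its 48h libraries, it had to differ there. In bulk RNA, fewer cells that express a gene and less of its RNA per cell cannot be told apart, here and in every result that follows. Marco (ENSMUSG00000026390, chr1:120474538-120505024, minus strand), which binds bacteria and particles, was listed at 0 in all 12 libraries. All 10 of a set of genes used by every cell (among them Actb, Gapdh and Tbp, chosen after the values were seen) were above 0 in every library. Their lowest mean was 2.35 TPM, of Tbp at 48h, so they do not show whether a transcript at a lower level would have been detected.

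**Figure D1:**
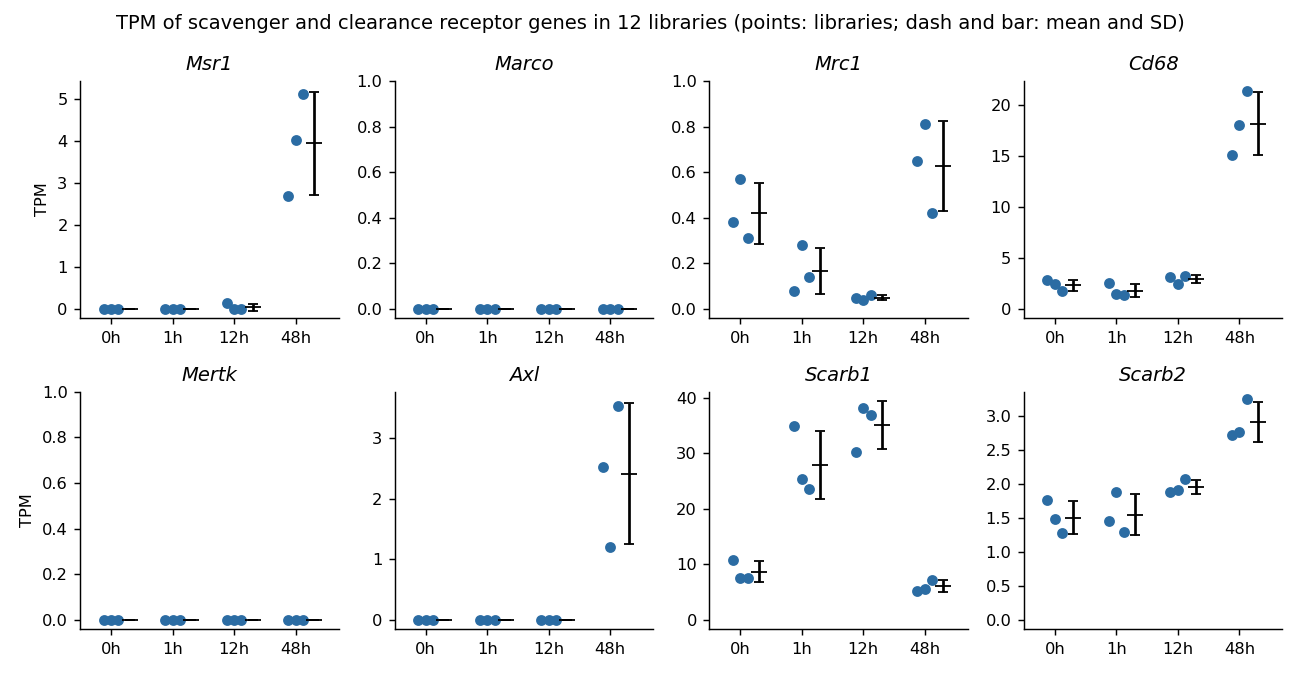
TPM (vertical axis, a linear scale of its own for each gene) of the 8 genes at 0h, 1h, 12h and 48h, with a point per library and the mean and SD (n = 3) beside the points. Msr1, Axl and Cd68 have their highest libraries at 48h, Scarb1 at 1h and 12h, Mrc1 has its lowest at 12h, and Marco and Mertk are at 0 in all 12 libraries.

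Mrc1 (ENSMUSG00000026712, chr2:14229392-14332057, plus strand), which binds mannose-bearing glycoproteins, fell by 12h and at 48h was above its 12h level and not called different from 0h, at a low level throughout. It was at 0.38, 0.57 and 0.31 TPM at 0h, at 0.08, 0.28 and 0.14 TPM at 1h, at 0.05, 0.04 and 0.06 TPM at 12h, and at 0.65, 0.81 and 0.42 TPM at 48h. The libraries of 12h lay below all others, and those of 0h and 48h overlapped. The change from 0h was -1.76 ± 0.38 (log2, SE) at 12h, with an adjusted p of 0.0044 by limma, and 0.48 ± 0.38 at 48h, with an adjusted p of 0.342. From 12h to 48h it rose by 2.24 ± 0.38, with an adjusted p of 0.000791. At 1h every library was below every 0h library, with a change of -1.0 ± 0.38 and an adjusted p of 0.0702. That difference was called after median-of-ratios scaling (-1.39, adjusted p = 0.0311) and without the second 1h replicate (-1.29, adjusted p = 0.0428). The size depended on the constant added: the 12h change was -2.81 with 0.01 and -0.43 with 1 in place of 0.1, and it was called with each.

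Cd68 (ENSMUSG00000018774, chr11:69664213-69666153, minus strand) changed between 12h and 48h. It was at 2.83, 2.47 and 1.76 TPM at 0h, at 2.53, 1.45 and 1.38 TPM at 1h, at 3.16, 2.45 and 3.2 TPM at 12h, and at 15.16, 18.09 and 21.36 TPM at 48h. The lowest 48h library, at 15.16 TPM, lay far above the highest earlier one, at 3.2 TPM, and the 3 earlier times overlapped. The mean of 18.2 ± 3.1 TPM (SD, n = 3) at 48h stood against 2.35 ± 0.54 TPM at 0h, a change of 2.91 ± 0.26 (log2, SE), or 7.52-fold, with an adjusted p of 3.88e-06 by limma. From 12h to 48h it rose by 2.59 ± 0.26, with an adjusted p of 2.97e-05. The changes at 1h (-0.41 ± 0.26, adjusted p = 0.276) and 12h (0.32 ± 0.26, adjusted p = 0.389) were not called. After median-of-ratios scaling the change at 1h was called (-1.03, adjusted p = 0.0097) and the one at 12h was -0.000502 on the log2 scale. Between 1h and 12h the change was 0.73 ± 0.26 (adjusted p = 0.0705), which was called after median-of-ratios scaling (1.03, adjusted p = 0.00483) and without the first 1h replicate (0.99, adjusted p = 0.0223). Lamp1 and Lamp2, genes of other proteins of the lysosomal membrane, were also higher at 48h, by 2.25 ± 0.17 and 2.66 ± 0.21, with adjusted p of 1.01e-06 and 1.16e-06.

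Among the TAM receptors Axl was the only one above 1 TPM in any library. Axl (ENSMUSG00000002602, chr7:25757273-25788705, minus strand), a receptor tyrosine kinase for Gas6, was listed at 0 in all 9 libraries of 0h, 1h and 12h and at 2.52, 1.2 and 3.54 TPM at 48h. No earlier library reached any 48h library. The adjusted p by limma was 3.48e-06 against 0h and 1.22e-05 against 12h, again for a gene that passed the filter only through its 48h libraries. Mertk (ENSMUSG00000014361, chr2:128698956-128802894, plus strand), the TAM receptor of resting tissue macrophages, was listed at 0 in all 12 libraries. Tyro3 did not pass 0.28 TPM in any library and was listed at 0 in all 3 at 48h. Their ligands differed from each other. Pros1, which encodes protein S, a ligand of Mertk and Tyro3, was at 0.3, 0.26 and 0.3 TPM at 0h, at 1.36, 1.61 and 1.87 TPM at 12h and at 2.49, 3 and 1.69 TPM at 48h. Its change from 0h was 2.14 ± 0.33 at 12h (adjusted p = 0.000588) and 2.65 ± 0.33 at 48h (adjusted p = 4.97e-05). Gas6, the ligand that Axl binds, was at 0.13, 0.19 and 0.18 TPM at 0h and at 0.05, 0.07 and 0.03 TPM at 48h, a change of -0.83 ± 0.41 with an adjusted p of 0.131.

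Scarb1 (ENSMUSG00000037936, chr5:125277087-125341094, minus strand) had the highest level of the 8 genes at 0h, 1h and 12h and was called higher within 1h. It was at 10.84, 7.61 and 7.49 TPM at 0h, at 34.85, 25.39 and 23.47 TPM at 1h, at 30.13, 38.14 and 36.86 TPM at 12h, and at 5.17, 5.63 and 7.25 TPM at 48h. The 1h and 12h libraries lay above all those of 0h and 48h, and every 48h library lay below every 0h library. The rise from 0h was 1.68 ± 0.22 (log2, SE) at 1h, or 3.2-fold, with an adjusted p of 0.000387 by limma, and 2.02 ± 0.22 at 12h, or 4.06-fold, with an adjusted p of 3.87e-05. Between 1h and 12h the change was 0.34 ± 0.22 (adjusted p = 0.289), which was called after median-of-ratios scaling (0.67, adjusted p = 0.0119). From 12h to 48h it fell by 2.53 ± 0.22, with an adjusted p of 8.48e-06. At 48h it was -0.51 ± 0.22 from 0h, with an adjusted p of 0.0773, and this was called only without the third 48h replicate (-0.649, adjusted p = 0.0376). After median-of-ratios scaling the changes from 0h were 1.02 at 1h (adjusted p = 0.0021), 1.69 at 12h (adjusted p = 1.66e-05) and -0.10 at 48h (adjusted p = 0.633). The sum of the granulocyte markers was between 9.64 and 17 TPM at 12h and between 0.35 and 0.64 TPM at 1h. Whether granulocytes were present, and had a part in the course of Scarb1, was not tested.

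Scarb2 (ENSMUSG00000029426, chr5:92441314-92506833, minus strand) differed from its paralog in time and size. It was at 1.76, 1.48 and 1.28 TPM at 0h, at 1.46, 1.89 and 1.3 TPM at 1h, at 1.89, 1.91 and 2.08 TPM at 12h, and at 2.72, 2.77 and 3.26 TPM at 48h. The 48h libraries lay above all others. Its change from 0h was 0.92 ± 0.20 (log2, SE) at 48h, or 1.89-fold, with an adjusted p of 0.00311 by limma. It was 0.37 ± 0.20 at 12h (adjusted p = 0.198), and 0.03 ± 0.20 at 1h (adjusted p = 0.93), a direction that reversed after median-of-ratios scaling (-0.58, adjusted p = 0.0427). Between 1h and 12h the change was 0.33 ± 0.20 (adjusted p = 0.27), which was called after the same scaling (0.63, adjusted p = 0.0167). From 12h to 48h it moved by 0.55 ± 0.20 (adjusted p = 0.0545), which was called after median-of-ratios scaling (1.27, adjusted p = 0.00019). Pdzk1, the adaptor of Scarb1 in liver, did not pass 0.31 TPM in any library and was not tested.

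**Figure D2:**
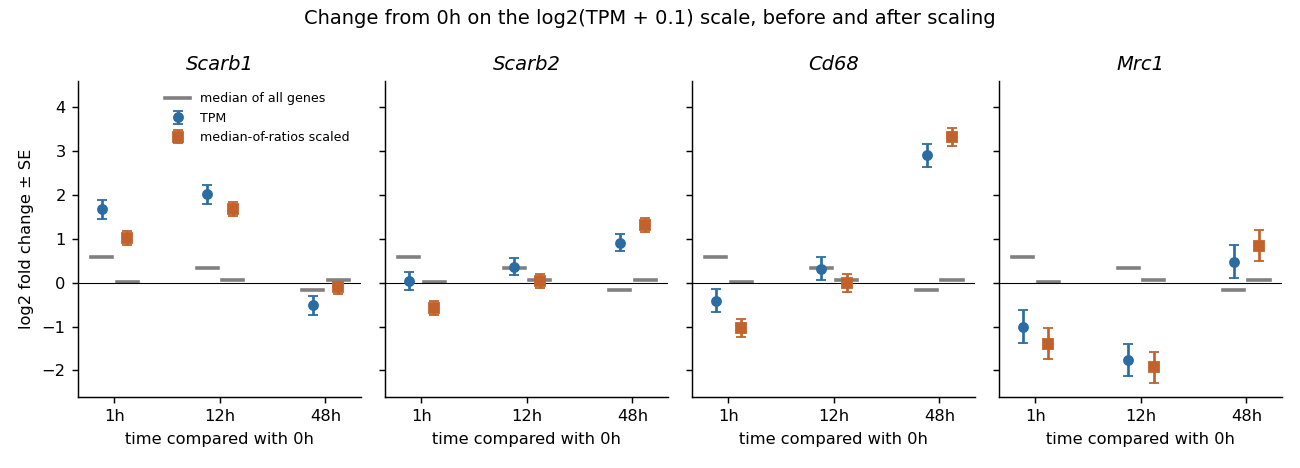
Log2 fold change from 0h (vertical axis, on the log2(TPM + 0.1) scale, with bars of 1 SE) at 1h, 12h and 48h for the 4 genes above 0 at every time, as TPM (circles) and after median-of-ratios scaling (squares), with the median of all tested genes as a grey line. Scarb1 lies above the median gene at 1h and 12h under both, Cd68 and Scarb2 at 48h, and Mrc1 lies below it at 1h and 12h.

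The calls over the 8 genes were read against the calls over all genes. At 1h, 1 of the 6 tested receptors was called higher and 0 lower, where 24.1% of all tested genes were called higher and 1.41% lower, and after median-of-ratios scaling 1 was higher and 3 lower. At 12h, 1 was higher and 1 lower, against 22.3% and 7.82%. At 48h, 4 were higher and 0 lower, against 15.9% and 27.2%, but Msr1 and Axl among the 4 could only have differed at that time. From 1h to 12h none of the 6 was called in either direction, against 6.98% higher and 15.0% lower, while 3 were called higher after median-of-ratios scaling. From 12h to 48h 4 were higher and 1 lower, against 4.10% and 31.7%, and after median-of-ratios scaling 5 were higher and 1 lower. Msr1 and Axl are again among the 4 and had passed the filter only through their 48h libraries. Median-of-ratios scaling changed the balance of all calls: it gave 889 higher and 808 lower genes at 1h in place of 3955 and 231, 2622 and 2374 at 12h in place of 3662 and 1283, and 4025 and 3614 at 48h in place of 2611 and 4466. From 1h to 12h it gave 1847 higher and 1440 lower in place of 1145 and 2468, and from 12h to 48h 1730 and 1954 in place of 673 and 5205. The comparisons with 0h share the 0h libraries.

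The receptors were ordered by their levels. At 0h and 1h the order was Scarb1, Cd68, Scarb2 and Mrc1, with the libraries of Cd68 and Scarb2 overlapping and the others at 0. At 12h Scarb1 at 35.0 ± 4.3 TPM (SD, n = 3) stood far above Cd68 at 2.94 ± 0.42 TPM and Scarb2 at 1.96 ± 0.10 TPM, and no libraries of these 3 overlapped. At 48h Cd68 led at 18.2 ± 3.1 TPM, ahead of Scarb1 at 6.02 ± 1.09 TPM, Msr1 at 3.95 ± 1.22 TPM, Scarb2 at 2.92 ± 0.30 TPM, Axl at 2.42 ± 1.17 TPM and Mrc1 at 0.627 ± 0.196 TPM. There the libraries of Msr1 and Scarb2 overlapped, as did those of Scarb2 and Axl, so the order within these 3 does not go beyond their spread. The 8 genes together had 12.9 ± 2.6 TPM at 0h, 31.4 ± 6.6 TPM at 1h, 40.0 ± 4.0 TPM at 12h and 34.1 ± 6.2 TPM at 48h.

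Other receptors and partners of the same pathways were counted at 48h against 0h, where the median of all tested genes was -0.18 on the log2 scale and 15.9% of them were called higher and 27.2% lower. Of 17 other scavenger receptor genes 6 were at 0 in all libraries, among them Cd163, and of the 6 that could be tested 3 were called higher and 1 lower, with a median of 1.42. Cd36, the class B receptor for oxidised lipids, rose by 4.25 ± 0.48, from at most 0.99 TPM at 0h to at least 11.56 TPM. Lrp1, an endocytic receptor for lipoproteins and calreticulin, rose by 3.25 ± 0.37. Megf10, an engulfment receptor of glia, fell by 2.76 ± 0.37, from at least 0.57 TPM to at most 0.02 TPM. Adjusted p by limma for these 3 were 2.21e-05, 2.71e-05 and 8.85e-05.

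For other receptors and bridging proteins of apoptotic cells, 17 genes were listed, 6 were at 0 throughout (among them C1qa, C1qb, C1qc and Timd4), and of 8 tested 4 were called higher and 1 lower, with a median of 1.27, against 15.9% and 27.2% of all tested genes. After median-of-ratios scaling 5 were higher and 0 lower, where of all 16415 tested genes 4025 were higher and 3614 lower. Thbs1, which encodes the bridging protein thrombospondin-1, was at 0.03, 0 and 0.01 TPM at 0h, at 3.91, 3.81 and 5.13 TPM at 12h and at 43.72, 51.47 and 57.56 TPM at 48h, with an adjusted p of 2.22e-10 by limma at 48h. Cd300lb and Cd300lf, receptors for lipids of dying cells, rose by 5.71 ± 0.26 and 3.40 ± 0.26, with adjusted p of 2.11e-08 and 1.11e-06. Trem2, a lipid receptor of phagocytes, was at 0.12, 0.55 and 1.47 TPM at 48h and at 0 in the other libraries. This gene, 1 of the 4 called higher, passed the filter only through its 48h libraries and could only have differed there. Thbs1 and Cd300lb, at means of 0.013 and 0.027 TPM at 0h, passed the filter only through their 12h and 48h libraries. Of the 4 called higher, only Cd300lf, at a mean of 1.71 TPM at 0h, would have passed without the later libraries. Of 16 genes of the engulfment machinery 13 were tested, with 5 higher, 2 lower and a median of 0.56, and after median-of-ratios scaling 9 were higher and 2 lower. Abca1, a lipid exporter, rose by 4.35 ± 0.29, Arhgap12, which acts on Rac, rose by 1.77 ± 0.23, and Elmo1, a subunit of the Rac activator with Dock proteins, fell by 1.70 ± 0.35, with adjusted p of 3.66e-07, 5.74e-05 and 0.00198. Abca1, at means of 0.023 TPM at 0h and 0.013 TPM at 1h, also passed the filter only through its later libraries.

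Signals that restrain engulfment comprised 5 genes, all tested, with 2 higher (against 15.9% of all tested genes), 1 lower (against 27.2%) and a median of -0.03, which was 0.38 after median-of-ratios scaling. Cd24a fell by 4.40 ± 0.20, from between 22.02 and 33.34 TPM to between 1.08 and 1.28 TPM. Sirpa, the macrophage receptor for CD47, rose by 3.99 ± 0.22, and Cd47 itself by 2.95 ± 0.21, with adjusted p by limma of 7.61e-08 and 5.17e-07. Of 9 genes for adaptors, cargo, lysosomal partners and shedding proteases of the receptors 8 were tested, with 7 higher, 0 lower and a median of 1.65. After median-of-ratios scaling 8 were higher, where of all 16415 tested genes 4025 were higher and 3614 lower. Npc2, which hands cholesterol out of the lysosome, rose by 2.93 ± 0.26 with an adjusted p of 3.35e-06. Of 14 genes for transcription factors of macrophage receptors 3 were at 0 in every library, among them Maf and Pparg, and of 10 tested 4 were higher and 1 lower, with a median of 0.39. Mitf, Nfe2l2 and Cebpb rose by 2.98 ± 0.39, 2.57 ± 0.18 and 2.43 ± 0.32, with adjusted p of 7.3e-05, 6.11e-07 and 6.58e-05. After median-of-ratios scaling 6 were higher and 0 lower. Mitf, at means of 0.07 TPM at 0h and 0.24 TPM at 1h, passed the filter on low values only through its later libraries.

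**Figure D3:**
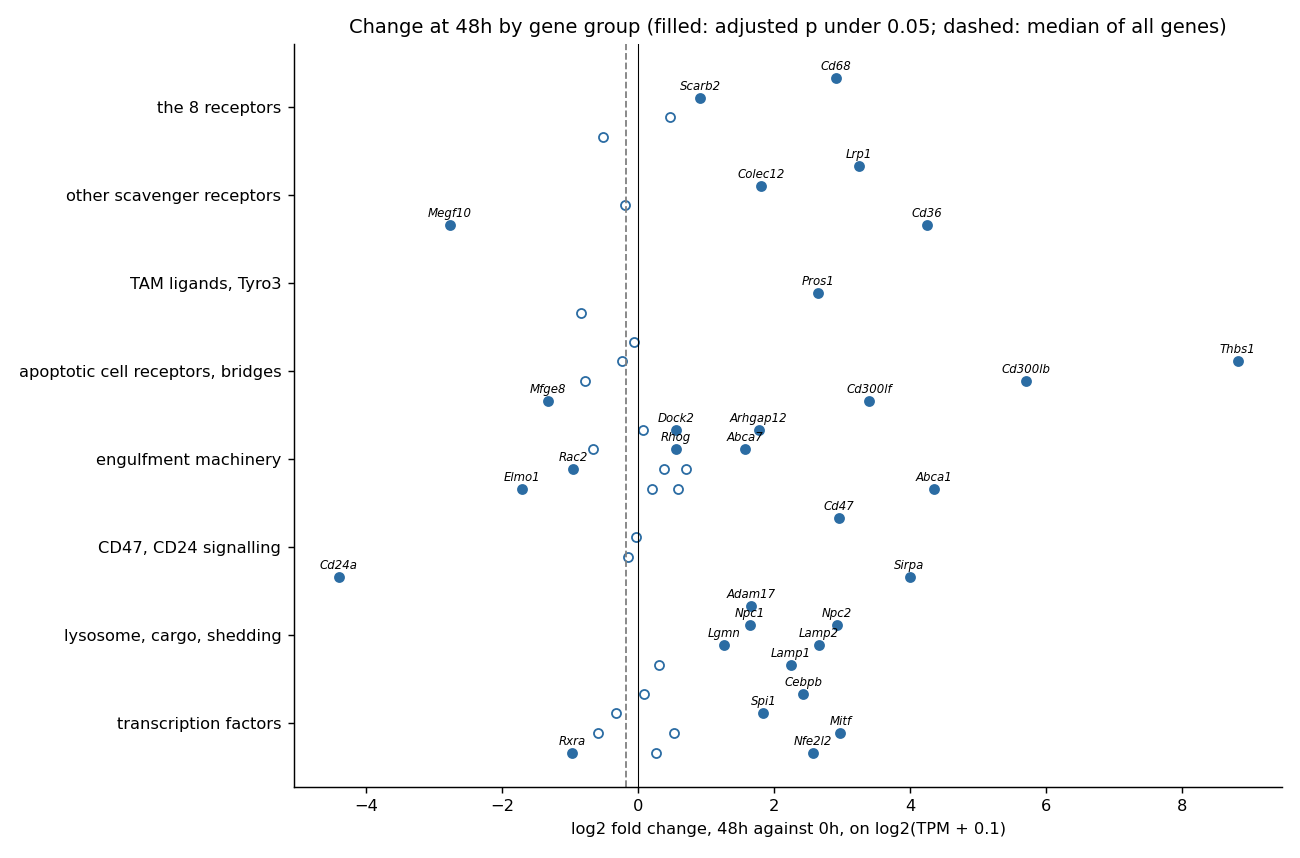
Log2 fold change at 48h against 0h (horizontal axis, on log2(TPM + 0.1)) of 53 tested genes in 8 groups, without genes at 0 in all 0h or all 48h libraries and without 1 gene that is not reported here. Filled points are called (adjusted p under 0.05) and named, and open points are not. The dashed line is the median of all tested genes, and the position within a row has no meaning. In the row of lysosome, cargo and shedding genes 6 points are filled, all to the right of 0.

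Each receptor gene had 1 captured promoter fragment, and contacts were counted from it. Distances are given from the middle of the captured fragment to the middle of the other, so the edges of near fragments lie closer than stated. The captured fragments of Msr1, Axl and Scarb1 were 3117, 16045 and 22604 bases long. Across 23193 genes with a captured fragment the median was 5 contacts at every time. The lists are merged from replicates, so that counts carry no replicate error and no test was made. The 0h list holds pairs with a CHiCAGO score of 5 or more, the other lists hold values whose unit is not named, and whether all 4 were thresholded alike is not known, which bears on every count compared between times. Of the 4 genes listed at 0 TPM at 0h, Msr1 and Marco had 0 contacts at that time, Axl had 1 and Mertk had 5. Msr1 had 0 contacts at 0h, 1h and 12h and 1 at 48h, when its transcript was above 2 TPM, to chr8:39629675-39639860, a fragment 8.32 kb away that holds an exon of Msr1 itself. Mrc1 also had contacts at 48h only, 2 in number, to a fragment 6.2 kb away that overlaps an exon of Tmem236 and to one 458 kb away in an intron of Cacnb2. Marco had 1 contact, at 12h. Axl had 1, 1, 4 and 3 contacts at 0h, 1h, 12h and 48h. The fragment at chr7:25761762-25773307, 16.9 kb away within Axl, was listed at all 4 times, and those at 24.6 kb and 31.4 kb, which hold exons of Axl and the latter also of Hnrnpul1, at 12h and 48h but not before. The contacts at 12h were thus listed while Axl was at 0 TPM.

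Cd68 had fewer contacts at the later times, with 13, 14, 3 and 2 at 0h, 1h, 12h and 48h, while its transcript was highest at 48h. Of its 13 contacts at 0h, 10 were to other captured promoter fragments, and 2 fragments were listed at all 4 times, 1 with the start of Plscr3 at 181 kb and 1 with those of Eif5a and Gps2 at 252 kb. Its captured fragment also holds the start of Eif4a1, so the contacts of these genes cannot be told apart. With a score of at least 10 in place of 5, 1 of the 13 contacts at 0h was left. Mertk, at 0 TPM throughout, had 5, 8, 11 and 3 contacts, with the fragment at the start of Tmem87b, 121 kb away, listed at all 4 times. Scarb1 had 1, 3, 3 and 0 contacts. A fragment 18.1 kb away within Scarb1 was listed at 1h and 12h, the times of its highest TPM, and not at 0h or 48h. Scarb2 had 3, 4, 6 and 1 contacts, with the fragment at the start of Nup54, 74.2 kb away, listed at all 4 times.

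**Figure D4:**
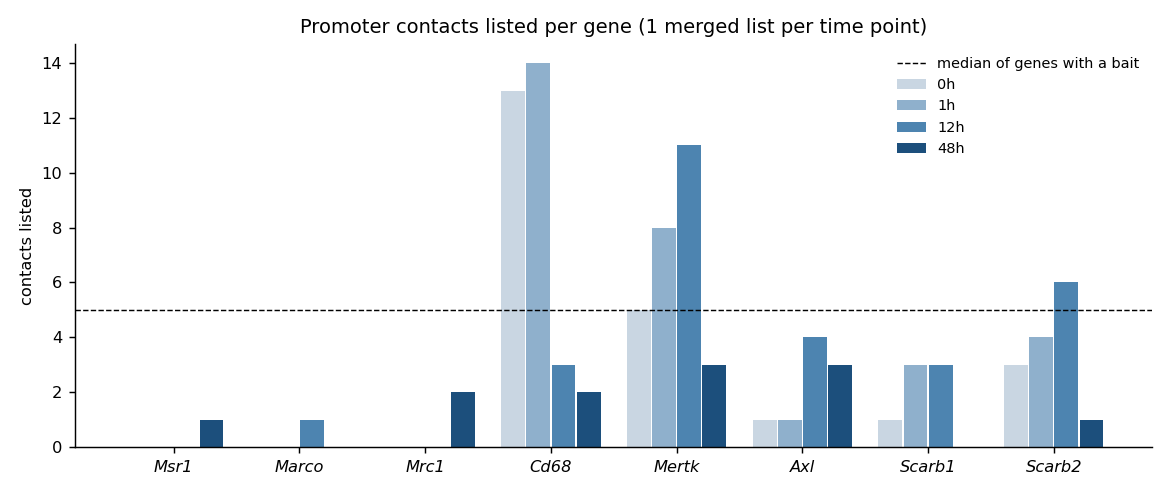
Number of contacts listed (vertical axis) from the captured promoter fragment of each of the 8 genes at 0h, 1h, 12h and 48h (light to dark bars, 1 merged list per time, no error bars), with the median of 5 over all genes with a captured fragment as a dashed line. Cd68 has 13 and 14 contacts at 0h and 1h and 2 at 48h, and Msr1 and Mrc1 have contacts at 48h only.

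For each detected receptor the 2 protein-coding genes with the most similar course were named, by Pearson's r of log2(TPM + 0.1) over the 12 libraries among 8058 genes whose mean TPM was 1 or more. Genes with a symbol of Gm and a number, or ending in Rik, were left out of the 8058. These r describe 12 libraries in 4 time points that share their scaling, and they carry no p. Nearest to Msr1 were Sectm1a (r = 0.994) and Tgtp1 (r = 0.992), both listed at 0 in all libraries of 0h and 1h, and Sectm1a was at 2.9, 4.6 and 6.57 TPM at 48h. Nearest to Axl were Ly6a (r = 0.981) and Trim30c (r = 0.979), and to Cd68 Gbp4 (r = 0.991) and Cd52 (r = 0.982). Cd52, a small surface glycoprotein of leukocytes, was at a mean of 17.5 TPM at 0h and 54.7 TPM at 48h. Nearest to Scarb1 were Manf (r = 0.985), a protein of the endoplasmic reticulum, and Dgat2 (r = 0.979), an enzyme of triglyceride synthesis. Dgat2 was at 0.24, 0 and 0.08 TPM at 0h, 3.38, 2.9 and 2.29 TPM at 1h, 5.78, 4.56 and 7.84 TPM at 12h, and 0.05, 0 and 0.1 TPM at 48h. Nearest to Scarb2 were Tor3a (r = 0.958) and Stat2 (r = 0.954). For Mrc1 the highest r were lower, with Ly6e (r = 0.873) and Lgmn (r = 0.869), a lysosomal protease that was at 9.24, 9.07 and 7.57 TPM at 0h, 3.53, 4.04 and 3.66 TPM at 12h and 19.16, 21.79 and 21.77 TPM at 48h.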

How the data were processed

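RNA-seq of 12 libraries (4 time points, 3 replicates each) and 4 merged Promoter Capture Hi-C lists were used, and the Hi-C data were not used here. The authors made the RNA libraries with a kit that does not mark the strand, merged technical replicates, trimmed reads with Trim Galore 0.6.2, aligned them to mm10 with HISAT2 2.1.0 and deposited TPM from RSEM, so the count test that the authors ran could not be repeated. The deposited 0h list holds CHiCAGO scores from 5 upward. Those deposited for 1h, 12h and 48h give whole numbers instead, whose unit the sources used here do not name, and only the presence of a pair was used from all 4. Whether the 4 lists were thresholded alike is not known. The study lists the reads sequenced per library, which were not used here. All columns of values in the TPM table were used.

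Genes whose mean TPM was 0.1 or more (16415 in all) went into limma 3.58.1 (R 4.3.3) on log2(TPM + 0.1), with 12 libraries in 1 model of time and a mean-variance trend, and the model was tested on simulated data. Summaries used Python 3.11.15 with pandas 2.3.3 and numpy 2.4.6. A call has an adjusted p under 0.05 and no fold threshold. When the model was tested, 100 genes were given a log2 difference of 1 at 48h against 0h, and 29% were recovered. With a log2 difference of 2 in 100 genes, 83% were recovered. Of the unchanged genes 9 were called. A gene that was not called may therefore still have changed. The simulated differences were put into few genes, all of a higher level at 0h. In the data 2611 genes were called higher and 4466 lower at 48h, so the shares recovered may differ there and for low genes such as Mrc1. Log2 fold thresholds of 1 and 2, other constants, filters, scalings and libraries were alternatives. Contacts were counted from fragments that hold a start site of the gene (GRCm38, the same build as mm10). Named genes are the 8 receptors, the 3 called genes of each list with the largest change at 48h, and the 2 genes most alike to each receptor, and a few others of the lists (such as Gas6, Tyro3, Pdzk1 and Trem2) were named after their values were seen. The receptors and the lists were chosen with earlier results of these data known. Values of 3 genes are not reported here.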

Additional observations from a re-analysis of the deposited data

How the results depend on the processing

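Calls of the 6 tested receptors were recomputed under 11 kinds of alternative, and apart from the fold thresholds no call was lost in any fit that tested the gene. With a mean TPM of at least 1, Msr1, Axl and Mrc1 were not tested, which left 2 receptors higher at 48h against 0h, 2 higher from 12h to 48h, 0 lower at 12h and 1 higher from 1h to 12h. The direction of Scarb2 at 1h turned under median-of-ratios scaling (-0.581), rescaling without the 20 most abundant genes (-0.425), quantile normalization (-0.557), and without 0h replicate 3 (-0.071) or 1h replicate 2 (-0.11), within a range from -0.11 to 0.144 over all libraries left out, and that of Cd68 at 12h under median-of-ratios scaling (-0.000502). At 1h the receptors called lower numbered 3 under median-of-ratios scaling, 2 under quantile normalization and 1 without the trend, and from 0 to 1 when 1 library was left out (1 without 1h replicate 2). From 1h to 12h those called higher numbered 3 under median-of-ratios scaling, 1 under rescaling and 3 under quantile normalization, and from 0 to 1 with 1 library left out (1 without 1h replicate 1). At 48h against 0h those called lower went from 0 to 1 (1 without 48h replicate 3). Beyond a log2 fold change of 1 or 2, 3 receptors in place of 4 were higher at 48h against 0h, Scarb2 being the one lost, and beyond 2 there were 0 higher at 1h and 0 lower at 12h.

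Over all tested genes, those called higher and lower at 1h were 889 and 808 under median-of-ratios scaling, 866 and 418 under rescaling, and 758 and 691 under quantile normalization. At 12h quantile normalization gave 2337 higher and 2346 lower, and median-of-ratios scaling 2374 lower. At 48h 1723 were higher with a mean TPM of at least 1 and 4025 under median-of-ratios scaling. From 1h to 12h median-of-ratios scaling gave 1847 higher and 1440 lower, quantile normalization 1902 and 1644, and rescaling 1331 lower. From 12h to 48h the counts were 1730 and 1954 under median-of-ratios scaling, 1062 and 2362 under rescaling, 1633 and 2086 under quantile normalization, and 436 higher with a mean TPM of at least 1. With 1 library left out, from 2340 to 4151 genes were higher at 1h, the lower counts without 0h replicate 3, 1h replicate 1 or 1h replicate 2, and from 1552 to 2684 lower from 1h to 12h, the lower counts without 1h or 12h replicates 1 or 2. Median-of-ratios scaling and quantile normalization bring the median change near 0 by their construction, which bears on the balance of higher and lower calls. TPM and rescaling do not, with median changes of 0.591 and 0.166 at 1h. Which scaling is right was not tested. With a score of at least 10 at 0h, Cd68 and Mertk kept 1 contact each and Axl and Scarb1 0, and fragments within 10 kb gave 4 contacts of Cd68 and 2 of Scarb2 shared between 0h and 48h.

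The replicate numbers do not mark pairs in the labels. Deviations from the time means correlated between same-numbered libraries with r from -0.0421 to 0.423, above 0.1 in 11 of 18 pairs, and 7 of 12 libraries correlated best with their own number. Replicate 3 stood apart, with r from 0.121 to 0.423 between its own libraries. Its r with libraries of replicates 1 and 2 at other times was negative in every pair. Between replicate 1 and replicate 2, r ran from -0.0247 to 0.184. A replicate block changed no receptor's call and gave 3833 genes higher and 240 lower at 1h, 3584 and 1257 at 12h, and 2590 and 4482 at 48h.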

Other observations

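The partner genes of the receptors were also counted at the earlier times. At 12h against 0h, 7 of the 8 tested genes for adaptors, cargo, lysosomal partners and shedding proteases were called higher and 1 lower. Their median was 1.13 on the log2(TPM + 0.1) scale against 0.34 over all tested genes, of which 22.3% were called higher and 7.82% lower. Under median-of-ratios scaling 6 of the 8 were higher and 1 lower, where of all 16415 tested genes 2622 were higher and 2374 lower. The 1 called lower was Lgmn, a lysosomal protease, with a change of -1.18 ± 0.15 (limma, adjusted p = 0.000138), which then rose by 2.45 ± 0.15 from 12h to 48h (adjusted p = 9.52e-07). Of 10 tested genes for transcription factors 7 were called higher and 0 lower at 12h, and 6 and 1 under median-of-ratios scaling. Mitf, among the 7, passed the filter on low values only through its 12h and 48h libraries. Of 13 tested genes of the engulfment machinery 9 were called higher and 0 lower at 1h, against 24.1% and 1.41% of all tested genes, but 3 and 1 under median-of-ratios scaling, which called 889 and 808 of all 16415 genes. Cd36, another class B receptor, was at 0.99, 0.56 and 0.41 TPM at 0h, 0.14, 0.38 and 0.9 TPM at 12h and 13.72, 15.71 and 11.56 TPM at 48h, so that the class B genes Scarb1 and Cd36 had their highest libraries at different times. The difference between the courses of these genes was not tested.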
